A study of Homo sapiens with 24 samples.

Results

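The genes of HLA class II antigen presentation were followed across 4 experimental configurations of U87 MG cells. The members were 10 of the 30982 gene names on the array: the chains HLA-DRA, HLA-DRB1, HLA-DRB5, HLA-DPA1, HLA-DPB1 and HLA-DQA1, the editors HLA-DMA and HLA-DMB, the invariant chain CD74 and the regulator CIITA. They were chosen from earlier results of these same arrays. Their log2 ratios are therefore a description, with no test of their own. The array carries 21 probes for them, of which 18 passed the filter on dim probes, and each of the 10 genes had at least 1 such probe. The filter kept a probe that stood well above background in either dye on both arrays of at least 1 configuration.

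Class II molecules present peptides from the endosomal pathway to CD4+ T cells. An alpha and a beta chain pair in the endoplasmic reticulum around CD74, which blocks the groove and carries the pair to the endosome. There HLA-DM exchanges the last fragment of CD74 for a peptide. CIITA binds no DNA itself and is recruited by the RFX, CREB and NF-Y factors that sit on the X and Y boxes of these promoters. Interferon-gamma switches CIITA on through JAK kinases in cells that are not professional antigen-presenting cells, and some gliomas carry class II molecules.

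U87 MG is an established human glioblastoma cell line. U87 2 Gy and U87 10 Gy compare cells given proton therapy (PT) with untreated U87 cells. The other configurations, U87 Si306 + 2 Gy and likewise U87 Si306 + 10 Gy, set cells given 10 µM of the SRC inhibitor Si306 and PT beside cells given the same PT dose alone, which addresses what the compound adds to PT. RNA was taken 24 h after irradiation and hybridised to 2-colour whole genome arrays. Cy5 carried the treated and Cy3 the control RNA on every array, with no dye swap, so that a dye effect of a probe cannot be told apart from the treatment. All groups are 1 cell line, and no group received Si306 without PT.

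The labels describe the 24 deposited tables as 6 replicates per configuration. According to the file headers they come from 8 arrays with 3 scans of each, so that a configuration has 2 arrays. In 2 tables the label and the array disagreed on the dose, and the other 22 scans were averaged within their array. Whether the 2 arrays of a configuration carry separate cultures could not be settled, so the errors measure the spread between arrays. PT alone lay on 1 slide and Si306 with PT on the other, so the effects of slide and compound cannot be told apart. In Cy3, 56.3% to 65.5% of the probes of a scan were well above background, and in Cy5 62.4% to 73.9%. Repeat scans of 1 array differed by at most 0.199 in the log2 ratio of any member. Median centring of each scan in place of loess moved the median of all genes. It then lay at 0.27 and 0.23 for PT alone and at 0.44 and 0.26 for Si306 with PT (2 Gy first). With loess it lay at 0.02, 0.02, 0.04 and 0.03. A ratio above 0 under median centring can therefore lie under the median of all genes.

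Probes of 5 class II genes, 60 bases each, are shown because several of these genes are near copies of each other. Coordinates are those of the array design on hg17. The HLA-DRB1 probe (bases 88920 to 88979 of an alternative haplotype of chromosome 6, minus strand) was spotted 10 times on each array. The CD74 probe lies at chr5:149772415-149772474 on the minus strand.
HLA-DRB1: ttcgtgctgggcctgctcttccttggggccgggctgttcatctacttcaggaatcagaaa
CD74: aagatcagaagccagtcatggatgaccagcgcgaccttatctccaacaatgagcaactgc
The HLA-DPB1 probe (chr6:33160959-33161565, plus strand) and 1 HLA-DRB5 probe (chr6:32594394-32595156, minus strand) each span an intron. Over 56 aligned bases they share 42, in capitals here.
HLA-DPB1: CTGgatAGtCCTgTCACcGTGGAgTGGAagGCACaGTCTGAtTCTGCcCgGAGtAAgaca
HLA-DRB5: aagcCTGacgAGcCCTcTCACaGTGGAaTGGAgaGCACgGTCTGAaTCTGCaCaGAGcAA
The same HLA-DRB5 probe shares 49 of 54 aligned bases (90.7%) with the probe of HLA-DRB4, a DR beta gene that lies on some haplotypes only. Capitals again mark the shared bases.
HLA-DRB4: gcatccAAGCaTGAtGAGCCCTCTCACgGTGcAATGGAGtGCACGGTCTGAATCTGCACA
HLA-DRB5: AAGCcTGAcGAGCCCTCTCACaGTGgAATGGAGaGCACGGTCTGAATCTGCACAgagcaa
Which transcripts of the DR beta family bound each of these probes was not tested, and their ratios may be shared.

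With Si306 added to PT, the DR and DP chains and CD74 had lower ratios at both doses. HLA-DRB1, a DR beta chain, had log2 ratios of -1.62 and -1.57 on the arrays of U87 Si306 + 2 Gy and -1.51 on both arrays of U87 Si306 + 10 Gy. Its means of -1.59 ± 0.03 and -1.51 ± 0.03 (SE of the limma fit, n = 2 arrays, as for all errors of the members) are 3.01-fold and 2.84-fold lower, and rank 4 from the lowest of 22822 and 1 from the lowest of 22844 gene names. Under median centring they were -0.63 and -0.88, short of 2-fold, and were -1.07 and -1.14 relative to the median of all genes. The 10 spots of this probe lay between -1.66 and -1.46 on all arrays of U87 Si306 + 2 Gy and between -1.60 and -1.43 on those of U87 Si306 + 10 Gy. No spot with Si306 overlapped the spots of PT alone, which lay between -0.15 and 0.21.

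HLA-DPB1, the DP beta chain, had log2 ratios of -1.44 and -1.55 in U87 Si306 + 2 Gy and of -1.41 and -1.44 in U87 Si306 + 10 Gy. These are means of -1.49 ± 0.04 and -1.43 ± 0.04, or 2.82-fold and 2.69-fold lower, at ranks 5 and 2 from the lowest. HLA-DPA1, its alpha partner, had log2 ratios of -1.10 and -1.26 in U87 Si306 + 2 Gy and of -0.91 and -0.94 in U87 Si306 + 10 Gy, with means of -1.18 ± 0.04 and -0.92 ± 0.04. For both DP chains a second probe was less far from 0. The second HLA-DPB1 probe gave mean log2 ratios of -1.09 and -0.74, and the second HLA-DPA1 probe, much dimmer, gave -0.36 in both configurations. Under median centring the main probes were at -0.93 and -1.03 for HLA-DPB1 and at -0.46 and -0.43 for HLA-DPA1.

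HLA-DRA, the alpha chain of all DR molecules, had log2 ratios of -1.04 and -1.02 in U87 Si306 + 2 Gy and -0.62 on both arrays of U87 Si306 + 10 Gy. Its means were -1.03 ± 0.03 and -0.62 ± 0.03, and -0.52 and -0.24 under median centring. HLA-DRB5, a further DR beta chain, had log2 ratios of -0.67 and -0.70 at 2 Gy with Si306 and of -0.47 and -0.44 at 10 Gy with Si306. The 2 arrays of a configuration lay close together for both genes, and the arrays of the 2 doses did not overlap. The HLA-DRB5 probe that resembles the HLA-DRB4 probe gave mean log2 ratios of -0.79 and -0.43. Under median centring HLA-DRB5 turned to 0.01 and 0.03, and was then 0.42 and 0.23 under the median of all genes.

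CD74, the invariant chain, had log2 ratios of -1.03 and -0.96 in U87 Si306 + 2 Gy and of -0.69 and -0.74 in U87 Si306 + 10 Gy. The means of -0.99 ± 0.03 and -0.71 ± 0.03 are 1.99-fold and 1.64-fold lower. CD74 was dim, with Cy3 levels (log2 of the normalised intensity, set between arrays) of 7.64 to 7.74 on the arrays with Si306. The offset of 50 added in the background correction draws dim ratios towards 0, and over 19 other settings its log2 ratio ran from -1.90 to -0.90 with Si306 at 2 Gy and from -1.44 to -0.60 at 10 Gy.

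CIITA, the regulator of the family, lay nearer to 0. Its brightest probe had log2 ratios of -0.36 and -0.37 in U87 Si306 + 2 Gy and of -0.11 and -0.03 in U87 Si306 + 10 Gy. A second probe gave means of -0.55 and -0.16. Under median centring the brightest probe was at -0.21 and turned to 0.10 at 10 Gy, against 0.44 and 0.26 for the median of all genes. A further, dimmer CIITA probe was well above background only in the PT channel of U87 2 Gy and U87 10 Gy, where the PT RNA was at least 1.03-fold and 1.07-fold higher than the untreated RNA. Such a bound sets the bright channel against the lowest signal that is well above background. Where the dim channel of the probe itself is higher, that channel is used instead. Both CIITA bounds lie close to the fitted log2 ratios of this probe, 0.05 and 0.10, and no rise is read from them.

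The DM genes differed from each other. HLA-DMB had log2 ratios of -0.47 and -0.38 in U87 Si306 + 2 Gy and of -0.09 and -0.10 in U87 Si306 + 10 Gy. HLA-DMA lay at -0.09 and -0.06 in U87 Si306 + 2 Gy and at 0.01 and 0.09 in U87 Si306 + 10 Gy. The second HLA-DMA probe lay at -0.14 and -0.22 and then at -0.07 and 0.04. Neither gene came near a 2-fold difference. Under median centring both turned to or stayed above 0, at 0.18 and 0.32 for HLA-DMB and 0.64 and 0.54 for HLA-DMA. The median of all genes was then 0.44 and 0.26.

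HLA-DQA1, the DQ alpha chain, was dim with Si306. Its main probe was not well above background in either dye on the arrays of both Si306 configurations, where the fitted log2 ratios were 0.12 and 0.02, and -0.49 and -0.28 under median centring. A further HLA-DQA1 probe shares 35 of 45 aligned bases with a probe of HLA-DQA2. In U87 Si306 + 2 Gy it was well above background in Cy5 on both arrays and in Cy3 on 1, with log2 ratios of 0.00 and 0.10. In U87 Si306 + 10 Gy this probe was well above background in Cy5 and not in Cy3, with log2 ratios of 0.18 and 0.24. The bound of 1.16-fold higher RNA with Si306 was there set by the dim channel itself. It is therefore the fitted ratio and no firm lower limit.

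**Figure D1:**
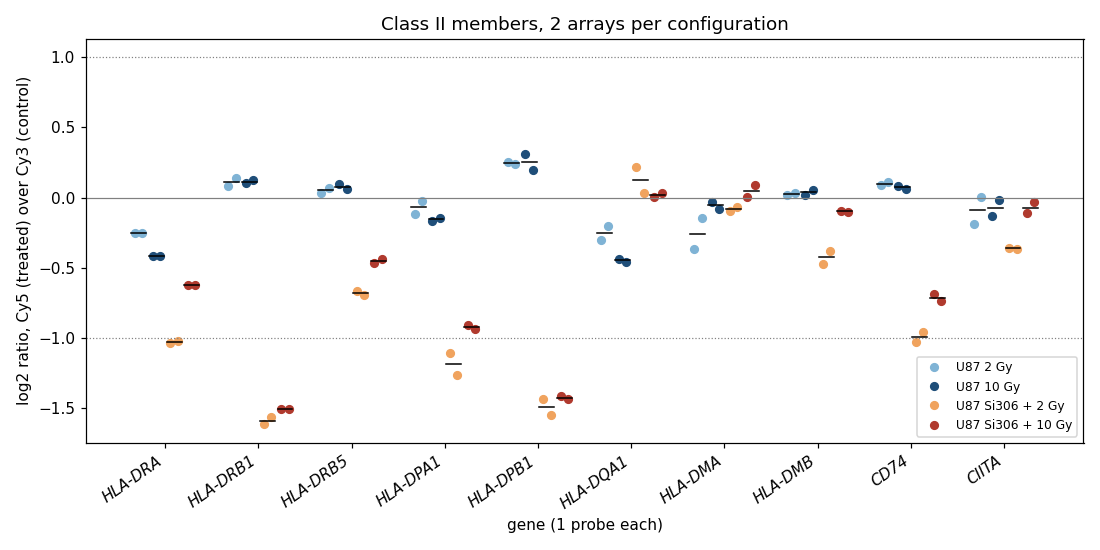
Log2 ratio of Cy5 to Cy3 (vertical axis) of each of the 10 members, with 1 point for each array, a line at the mean of the 2 arrays in each of the 4 configurations and dotted lines at the 2-fold limit. HLA-DRB1 and HLA-DPB1 lie between -1.62 and -1.41 on all 4 arrays with Si306, and above 0 on all 4 arrays of PT alone.

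At 2-fold or more with an adjusted p under 0.05 in limma, the call used here for a DEG, 4 of 10 members (HLA-DRA, HLA-DRB1, HLA-DPA1 and HLA-DPB1) were down regulated in U87 Si306 + 2 Gy, beside 0.158% of all 22822 gene names down regulated and 0.570% up regulated. In U87 Si306 + 10 Gy it was 2 of 10 (HLA-DRB1 and HLA-DPB1), beside 0.0832% down regulated and 0.289% up regulated. No member was up regulated by this call. HLA-DRA at -1.03 was just inside the 2-fold limit in U87 Si306 + 2 Gy and CD74 at -0.99 just outside. Without the fold limit, 8 members were lower and 1 (HLA-DQA1, whose main probe was not well above background) was higher in U87 Si306 + 2 Gy, beside 27.9% and 38.6% of all names. In U87 Si306 + 10 Gy 7 were lower and 0 higher, beside 27.2% and 35.2%. The median log2 ratio of the members was -0.84 and -0.54 at the 2 doses, against 0.04 and 0.03 over all gene names. Because the members were chosen from these ratios, nothing is read from the counts. Under median centring the DEG counts were 0 and 1 (medians -0.48 and -0.26).

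After PT alone the members had no common direction and their means lay between -0.45 and 0.25 on the log2 scale. No member was a DEG in limma, beside 0.683% of all names up regulated and 0.0438% down regulated in U87 2 Gy, and 0.823% and 0.144% in U87 10 Gy. Without the fold limit 3 members were higher and 3 lower in U87 2 Gy, beside 32.2% and 25.0% of all names, and 2 were higher and 3 lower in U87 10 Gy, beside 31.2% and 26.3%. The median of the members was -0.02 and -0.01.

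HLA-DPB1 had log2 ratios of 0.25 and 0.24 in U87 2 Gy and of 0.31 and 0.20 in U87 10 Gy. Its second probe did not share this, with means of -0.12 and -0.03. HLA-DRB1 lay at 0.08 and 0.14 in U87 2 Gy and at 0.10 and 0.12 in U87 10 Gy. The lower ratios were those of HLA-DRA, at -0.25 on both arrays of U87 2 Gy and at -0.42 and -0.41 in U87 10 Gy, and of HLA-DQA1, at -0.30 and -0.20 and then -0.44 and -0.46. The HLA-DQA1 probe that resembles HLA-DQA2 did not share this, with means of -0.02 and -0.05, and a dimmer one gave -0.05 and -0.08. HLA-DMA was at -0.37 and -0.15 in U87 2 Gy and at -0.03 and -0.08 in U87 10 Gy, and its second probe gave means of -0.07 and 0.02. HLA-DRB5, HLA-DPA1, HLA-DMB, CD74 and the brightest CIITA probe had means between -0.16 and 0.10 in both configurations. Further probes lay higher, with means of 0.21 and 0.16 for HLA-DRB5 and of 0.17 and 0.20 for CIITA, while the second HLA-DPA1 probe gave 0.13 and -0.05. Under median centring the ratios of all members but HLA-DQA1 were above 0 at both doses of PT alone. The median of all genes was then itself 0.27 and 0.23 and that of the members 0.52 and 0.43. HLA-DRA lay under the median of all genes in U87 10 Gy, at 0.08.

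**Figure D2:**
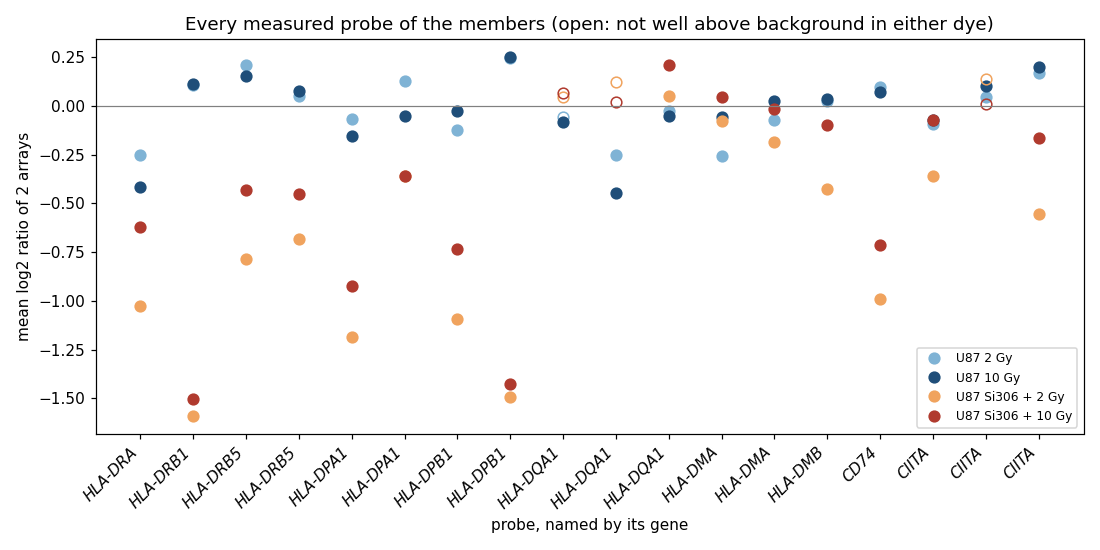
Mean log2 ratio of Cy5 to Cy3 (n = 2 arrays) of each of the 18 kept probes of the members in the 4 configurations, with open points where neither dye was well above background. Probes of 1 gene differ in size, as for HLA-DPA1 in U87 Si306 + 2 Gy, where the means are -1.18 and -0.36.

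With Si306 present, the mean ratios of the main probes of all 10 members lay nearer to 0 at the higher dose, where HLA-DMA crossed 0. The main HLA-DQA1 probe was not well above background there, and the probe that resembles HLA-DQA2 went from 0.05 to 0.21. For 6 members the difference passed an adjusted p under 0.05 in limma. The log2 ratio in U87 Si306 + 10 Gy minus that in U87 Si306 + 2 Gy was 0.41 ± 0.04 for HLA-DRA, 0.33 ± 0.05 for HLA-DMB, 0.29 ± 0.07 for CIITA, 0.28 ± 0.05 for CD74, 0.26 ± 0.06 for HLA-DPA1 and 0.23 ± 0.05 for HLA-DRB5. For HLA-DRB1 and HLA-DPB1 it was 0.08 ± 0.05 and 0.07 ± 0.06, within about 2 SE of 0, although the second HLA-DPB1 probe went from -1.09 to -0.74. The second HLA-DPA1 probe, much dimmer, gave -0.36 at both doses and so no difference. Second probes went from -0.79 to -0.43 for HLA-DRB5 and from -0.55 to -0.16 for CIITA. The 6 members that passed were all higher and 0 were lower, beside 10.2% and 12.6% of all gene names. The median of the members was 0.24 against -0.01. Because the members were chosen from these same arrays, nothing is read from the counts of the doses either. For PT alone the difference between the doses passed for 0 higher and 2 lower members (HLA-DRA at -0.16 ± 0.04 and HLA-DQA1 at -0.19 ± 0.06), beside 9.92% and 11.2% of all names. The HLA-DQA1 probe that resembles HLA-DQA2 went from -0.02 to -0.05. Under median centring the difference with Si306 was 0.28 for HLA-DRA, 0.29 for CD74 and 0.30 for CIITA. It was 0.02 for HLA-DRB5, 0.04 for HLA-DPA1 and 0.14 for HLA-DMB. The difference turned to -0.25 for HLA-DRB1 and -0.11 for HLA-DPB1, against -0.13 over all gene names. That of HLA-DRA for PT alone was then -0.27. Since each Si306 configuration has its own PT control, this difference compares steps and not levels.

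Adding the PT step and the Si306 step places the RNA with Si306 against untreated RNA. The summed log2 ratio at 2 Gy and at 10 Gy was -1.48 ± 0.05 and -1.39 ± 0.05 for HLA-DRB1, and -1.28 ± 0.04 and -1.04 ± 0.04 for HLA-DRA. It was -1.25 ± 0.06 and -1.08 ± 0.06 for HLA-DPA1, -1.25 ± 0.06 and -1.17 ± 0.06 for HLA-DPB1, and -0.89 ± 0.05 and -0.64 ± 0.05 for CD74. For HLA-DMA the sum was -0.34 ± 0.07 at 2 Gy and -0.01 ± 0.07 at 10 Gy. These sums depend on the scaling. Under median centring they were 0.12 and -0.24 for HLA-DRB1, -0.17 and -0.16 for HLA-DRA, 0.07 and -0.06 for HLA-DPA1, -0.07 and -0.31 for HLA-DPB1, -0.37 and -0.16 for CD74 and 0.94 and 0.96 for HLA-DMA, with medians over all gene names of 0.73 and 0.52. The sums join arrays of different slides, in which the PT RNA had other levels.

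RNA of cells given PT alone was measured on both slides, in Cy5 against untreated RNA and in Cy3 against RNA with Si306, and most members differed between them. The HLA-DRA level (log2 of the normalised intensity) was 10.86 to 11.28 in the PT RNA of the slide without Si306 and 8.85 to 8.92 in the PT RNA of the other. The HLA-DRB5 level was 12.79 to 12.85 on the former slide and 9.52 to 9.65 on the latter. The HLA-DPA1 level was 11.93 to 12.27 on the former and 9.99 to 10.02 on the latter. HLA-DRB1 did not share this, with levels of 12.54 to 12.71 and of 12.51 to 12.54.

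With the dye held the same, Cy3 of the Si306 slide (PT RNA) minus Cy3 of the PT slide (untreated RNA) was -3.16 for HLA-DRB5, -2.51 for HLA-DRA, -2.24 for HLA-DPA1, -1.98 for HLA-DPB1 and -1.62 for HLA-DQA1. It was -0.96 for CD74, -0.87 for HLA-DMA, -0.77 for CIITA, -0.31 for HLA-DMB and -0.01 for HLA-DRB1. The ranges of the 2 slides overlapped for 1 of 10 members. Of 21206 gene names, 11.4% were lower by 1 or more and 3.49% by 2 or more, while 5 and 3 of the 10 members were. The median over all names was -0.05, with an SD of 1.19. HLA-DQA1 is among the 5, but its main probe was not well above background in Cy3 of the Si306 slide. Its -1.62 is therefore set against a background signal. The controls of the Si306 ratios thus had less signal for most members than the RNA on the other slide. Within the arrays of U87 2 Gy the step from untreated to PT RNA was small beside it, with mean log2 ratios of -0.25 for HLA-DRA, 0.05 for HLA-DRB5 and -0.07 for HLA-DPA1. The cause of the difference between the slides was not tested, and the ratios within an array do not use it.

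**Figure D3:**
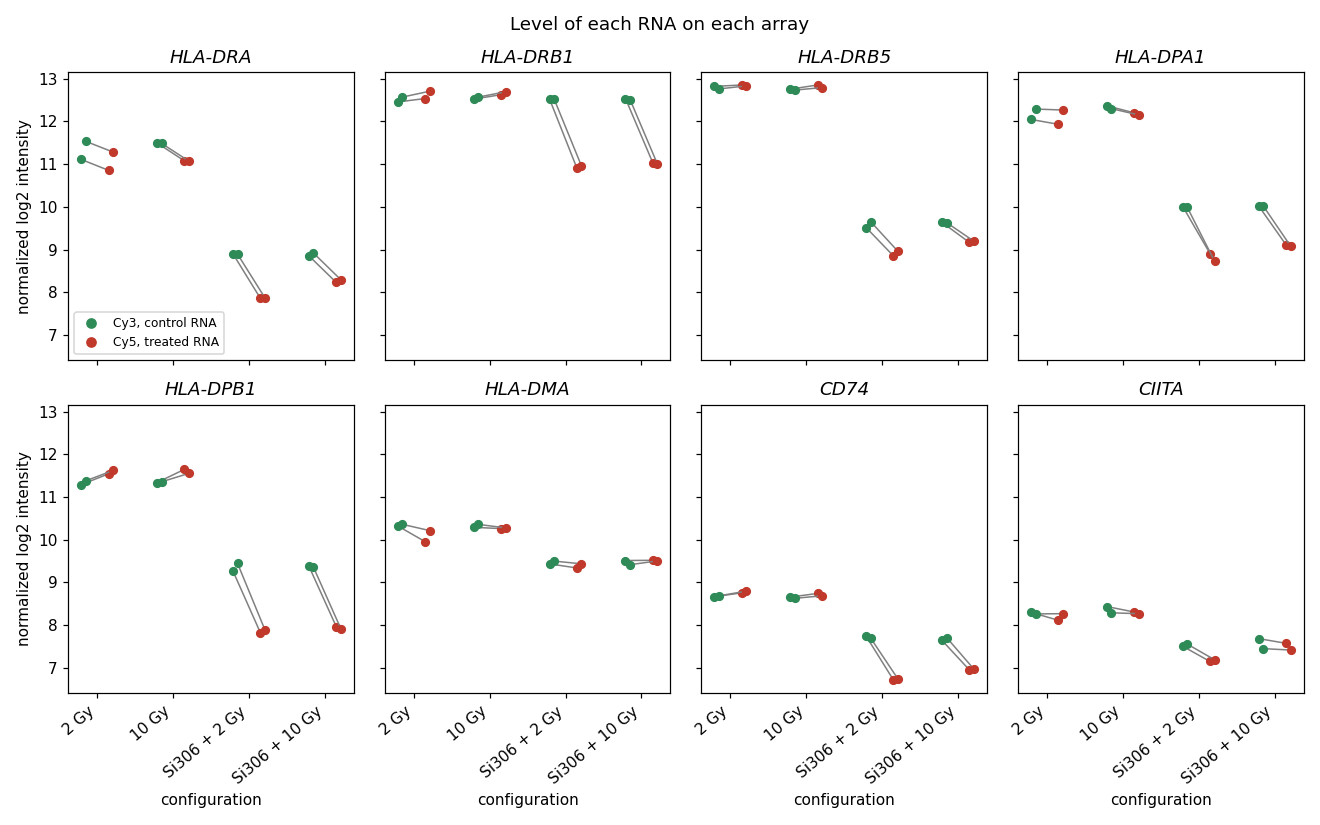
Level (log2 of the normalised intensity, vertical axis) of 8 members in Cy3 and Cy5 of each of the 8 arrays, by configuration, with a line joining the dyes of 1 array. The Cy3 level of HLA-DRA is 11.11 to 11.54 in untreated RNA and 8.85 to 8.92 in PT RNA of the Si306 slide, whereas HLA-DRB1 lies near 12.5 in both.

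The other class II genes, fixed as a list of 9 names, had 7 names with a kept probe, and HLA-DQA2 and HLA-DRB6 were below background. In U87 Si306 + 2 Gy 4 of 7 fell and 1 rose, and in U87 Si306 + 10 Gy the counts were again 4 and 1 (median log2 ratios -0.34 and -0.38). HLA-DRB3, a DR beta gene of some haplotypes, fell to -0.71 ± 0.04 (adjusted p = 8.73e-08 in limma) and -0.53 ± 0.04 (adjusted p = 9.05e-07). HLA-DRB4 fell to -0.62 ± 0.03 and -0.40 ± 0.03, and HLA-DOA, which restrains HLA-DM, to -0.34 ± 0.03 and -0.38 ± 0.03. The second HLA-DOA probe gave -0.24 and -0.04. Under median centring HLA-DRB4 in U87 Si306 + 10 Gy turned to 0.03. The brightest probe named HLA-DQB1 fell to -0.84 ± 0.04 (adjusted p = 1.33e-08 in limma) and -0.67 ± 0.04. The other HLA-DQB1 probes, at chr6:32735929-32735988 and chr6:32742360-32742419 in the array design, gave means between -0.03 and 0.17. The brightest one lies away from them at chr6:32833575-32833634, beside the HLA-DQB2 probe at chr6:32834713-32834772, which rose by 0.32 ± 0.05 and 0.15 ± 0.05. Which transcript the brightest probe bound was not tested. After PT alone 5 of the 7 rose in U87 2 Gy and 2 in U87 10 Gy, and none fell. HLA-DRB3 rose by 0.46 ± 0.04 and 0.42 ± 0.04.

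The factors that transcribe class II genes went both ways. Of 13 tested, 2 rose and 6 fell in each Si306 configuration, and 3 rose with 8 falling in U87 2 Gy and 6 in U87 10 Gy. ZXDC, a zinc finger partner of CIITA, fell to -0.22 ± 0.03 (adjusted p = 0.000163) and -0.54 ± 0.03 (adjusted p = 2.47e-07) with Si306. Its second probe gave -0.26 and -0.01, and median centring turned the first value to 0.02. The acetyltransferases CREBBP and EP300 parted after PT alone. CREBBP rose by 0.30 ± 0.04 and 0.48 ± 0.04 and EP300 fell to -0.52 ± 0.04 and -0.51 ± 0.04, although the second EP300 probe lay at -0.08 and 0.04 and the second CREBBP probe at 0.24 and 0.07. KAT2B, a further acetyltransferase, rose by 0.24 ± 0.04 and 0.25 ± 0.04 with Si306, where its second probe gave -0.34 and -0.30.

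On the path from interferon-gamma to CIITA, 4 of 13 genes rose and 8 fell in U87 Si306 + 2 Gy, and 3 rose and 7 fell in U87 Si306 + 10 Gy. JAK2, the kinase at the receptor, fell after PT alone to -0.49 ± 0.03 and -0.45 ± 0.03 and rose with Si306 by 0.25 ± 0.03 and 0.16 ± 0.03. IRF2 fell to -0.39 ± 0.03 and -0.57 ± 0.03 after PT alone, which its second probe, at 0.06 and 0.04, did not share, and which median centring turned to 0.06 in U87 2 Gy. For PTPN11, a phosphatase of the pathway, the brightest probe gave 0.64 and 0.50 after PT alone and -0.72 and -0.71 with Si306. Its other probes lay between -0.41 and 0.06 and between -0.56 and 0.04, and median centring turned the values with Si306 to 0.42 and 0.02. IFNG itself was below background.

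Among proteases and other genes of peptide loading and turnover, 4 of 12 rose and 7 fell in U87 Si306 + 2 Gy, and 3 and 6 in U87 Si306 + 10 Gy. CTSH rose by 0.55 ± 0.05 and 0.66 ± 0.05 (adjusted p = 4.67e-07) and CTSF by 0.41 ± 0.03 and 0.44 ± 0.03. CTSD fell to -0.47 ± 0.06 and -0.36 ± 0.06 after a rise of 0.75 ± 0.06 and 0.83 ± 0.06 under PT alone. IFI30, the thiol reductase of the class II pathway, fell to -0.50 ± 0.04 (adjusted p = 1.17e-06) and -0.14 ± 0.04. With median centring CTSD was at 0.07 and 0.02 and IFI30 at 0.37 and 0.43 with Si306.

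The list of CD74 partners on the cell surface counted 4 rising and 0 falling of 6 in U87 Si306 + 2 Gy, and 3 and 1 in U87 Si306 + 10 Gy. MIF, the cytokine that binds CD74, rose by 0.58 ± 0.03 and 0.55 ± 0.03 after PT alone and by 0.44 ± 0.03 (adjusted p = 8.71e-07) and 0.20 ± 0.03 with Si306. CD44, its signalling partner, rose by 0.43 ± 0.03 (adjusted p = 5.31e-07) and 0.08 ± 0.03 with Si306. ACKR3, a receptor for MIF, rose by 0.87 ± 0.05 and 0.77 ± 0.05 after PT alone. With Si306 it lay at 0.09 and -0.04, which did not pass. CXCR4, a further receptor for MIF, lay at -0.07, which did not pass, and fell to -0.17 (adjusted p = 0.000645 in limma) in U87 Si306 + 10 Gy.

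Class I genes, the other arm of peptide presentation, had PT RNA as treated RNA in the PT configurations and as control in those with Si306. Of 17 tested, 13 rose and 3 fell in U87 2 Gy and 11 rose and 3 fell in U87 10 Gy, while 2 rose and 13 fell in U87 Si306 + 2 Gy and 3 rose and 10 fell in U87 Si306 + 10 Gy. The medians were 0.26, 0.18, -0.31 and -0.20. HLA-B, a class I heavy chain, rose by 0.66 ± 0.03 and 0.42 ± 0.03 after PT alone and fell to -0.75 ± 0.03 (adjusted p = 2.41e-08) and -0.56 ± 0.03 with Si306. B2M, the light chain, rose by 0.53 ± 0.03 and 0.39 ± 0.03 and fell to -0.72 ± 0.03 and -0.48 ± 0.03, while its second probe lay between -0.13 and -0.05 in all 4 configurations. PSMB9, an immunoproteasome subunit, fell to -1.08 ± 0.04 (adjusted p = 9.47e-09) and -0.76 ± 0.04, and PSMB10 fell in all 4 configurations, to between -0.65 and -0.32. Under median centring the class I medians with Si306 were 0.58 and 0.44, which is 0.15 and 0.18 above all genes, and HLA-B, B2M and PSMB10 turned above 0 there, PSMB10 after PT alone as well. The members' medians stayed 0.91 and 0.52 under all genes in that setting.

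Costimulatory genes were split, with 3 rising and 3 falling of 10 in U87 Si306 + 2 Gy and 4 and 1 in U87 Si306 + 10 Gy. CD274, the ligand PD-L1, rose by 0.55 ± 0.03 (adjusted p = 1.43e-07) and 0.15 ± 0.03. CD86 fell to -0.91 ± 0.03 in U87 Si306 + 2 Gy by its brightest probe, while its other probe gave 0.03 and median centring turned the former to 0.34. LAG3, a receptor for class II molecules on T cells, fell to -0.32 ± 0.04 in U87 Si306 + 2 Gy. CD58, an adhesion ligand, rose by 0.63 ± 0.04 and 0.66 ± 0.04 after PT alone. Over all 7 lists, which were chosen with earlier results of these arrays known, 63 and 55 of 78 genes passed after PT alone at 2 and 10 Gy (80.8% and 70.5%), beside 57.2% and 57.5% of all gene names in either direction. With Si306 added 61 and 54 passed (78.2% and 69.2%), beside 66.5% and 62.4% of all names. The shares of all names in each direction, given above beside the counts of members, are also those against which the counts of rising and falling genes in each list stand.

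**Figure D4:**
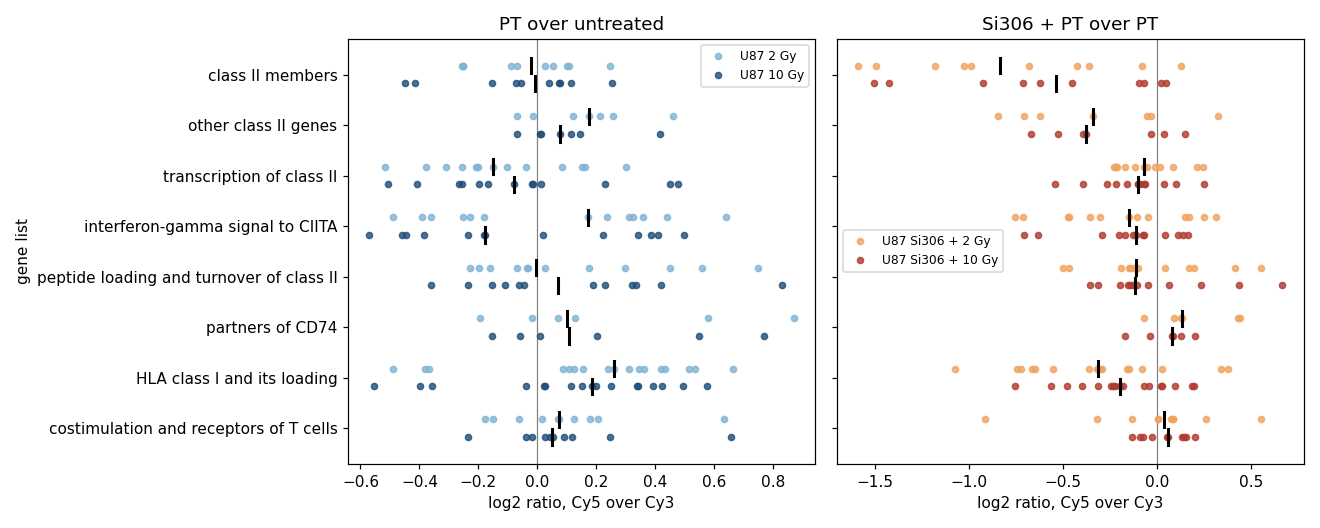
Mean log2 ratio of Cy5 to Cy3 (horizontal axis) of each tested gene of the 7 lists and of the members, in the 4 configurations, with a bar at the median of each list and a scale of its own in each panel. The members' median with Si306 is -0.84 at 2 Gy and -0.54 at 10 Gy, and that of class I is -0.31 and -0.20.

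Most markers listed for a glial and mesenchymal line were found in the untreated RNA. VIM, NES, GFAP, CD44, FN1, TNC, SPARC and CHI3L1, 8 of 9 markers, were well above background on all 4 arrays of untreated RNA. S100B was so on none. GFAP was dim, at 6.67 to 6.90 (log2) beside 6.12 to 6.20 for S100B. Of 12 markers of blood and antigen-presenting cells, 6 (PTPRC, AIF1, CD163, MS4A1 and CD1C among them) were not well above background on any array of untreated RNA, ITGAM was on 1 of 4, and CD14, CD68, CSF1R, CD79A and ITGAX were on all. The summed level of these 12 (log2) ran from 11.51 to 12.71 in untreated RNA. CD68 alone lay at 11.73 to 11.87 there, so the lower sums hold no value of CD68. The sums of the 12 are therefore not compared between slides. The summed level of the glial list was 17.91 to 18.04 in untreated RNA and 17.64 to 17.75 in PT RNA of the same slide. In PT RNA of the Si306 slide it was 17.41 to 17.66, and in RNA with Si306 17.22 to 17.39. The part of blood and antigen-presenting cells in the class II values was not tested. Fewer cells with a transcript and less of it per cell cannot be told apart in these samples.

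The 6 gene names outside the members with the profile nearest to the members' median were found by the root mean square difference of log2 ratios over the 8 arrays. They were LOC440348 (0.0576), LOC401357 (0.0697), CP (0.0781), PLSCR1 (0.0785), RRP22 (0.0789) and TSC1 (0.0841). CP is the copper carrier ceruloplasmin, and its mean log2 ratios were 0.10, 0.06, -0.77 and -0.54. PLSCR1, a phospholipid scramblase, had -0.03, -0.02, -0.73 and -0.62. Of the members themselves HLA-DRB5 (0.103) and CD74 (0.137) lay nearest to the median profile, and HLA-DRB1 (0.619) and HLA-DQA1 (0.614) farthest.

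Promoters of 8 members were in the RefSeq table (GRCh38.p14, 250 bases before to 50 after the start), with HLA-DPA1 in 2 windows. HLA-DRA and CIITA had no window in it and were not searched. Promoters are shown because CIITA acts through paired boxes there. The letters AGNNACNGA, taken for the X box, stood in the windows of 6 of 8 genes on either strand, beside 15.3% of all 35116 windows. ATTGG, the Y box and the site of NF-Y, stood in 7 of 8 on either strand, beside 34.6%. Both together, X first and the Y letters 20 to 40 bases downstream, so that they do not overlap, stood in 4 of 8 genes and in 0.299% of all windows. The letters were chosen after the windows had been read, so the share is a description. Only these exact letters within the windows were sought, so a gene without the pair may still carry both boxes. The 4 stretches, with both motifs in capitals, are those of HLA-DRB1 (chr6:32589880-32589942), HLA-DRB5 (chr6:32530363-32530425), HLA-DQA1 (chr6:32637289-32637352) and HLA-DMA (chr6:32953162-32953225), on the minus strand but for HLA-DQA1.
HLA-DRB1: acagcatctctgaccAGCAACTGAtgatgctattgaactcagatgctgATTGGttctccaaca
HLA-DRB5: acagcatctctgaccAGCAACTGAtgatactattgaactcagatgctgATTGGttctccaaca
HLA-DQA1: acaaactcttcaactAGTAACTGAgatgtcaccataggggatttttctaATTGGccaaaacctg
HLA-DMA: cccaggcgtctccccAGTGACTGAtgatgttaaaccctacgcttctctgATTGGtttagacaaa
HLA-DRB1 and HLA-DRB5 carry nearly the same stretch, and their log2 ratios with Si306 were -1.59 and -0.68 at 2 Gy. HLA-DMA carries the pair as well and lay at -0.08 there. No binding was measured.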

How the data were processed

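RNA of U87 MG cells was labelled and hybridised by the authors. The deposited tables of the scanner software (Feature Extraction 9.5.3.1) give for each of 45015 spots the mean signal intensity and local background of each dye. They also hold a log10 ratio, corrected and dye-normalized by the software the authors used. The deposited series matrix holds that log10 ratio within 0.005. These were other settings. The intensities were used here.

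Control spots and spots flagged as outliers in signal or background (3.10% to 5.98% of a scan) were left out. Mean signals were corrected by normexp (offset 50) and normalized by loess within the scan. Spots of a probe and scans of an array were averaged. Levels were set between arrays with Aquantile. A probe was kept if well above background in either dye on both arrays of at least 1 configuration, which left 30315 of 41000 probes and 22846 of 30982 gene names. The brightest probe stood for its name. All 8 arrays entered 1 limma fit (limma 3.58.1 and statmod 1.5.0 in R 4.3.3, tables read with the package data.table, version 1.17.8), with a prior of 6.58 df and an SD of 0.0537 and with 4 residual df, and Benjamini-Hochberg adjustment over all names. The scripts were tested on simulated data. The number of arrays limits the precision.

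Some genes of the lists are not reported here by name. Named genes were otherwise all members, in each list up to 4 genes with the largest log2 ratio that passed with 1 sign on both arrays, and the 6 nearest profiles. Older array names were matched through RefSeq synonyms (KAT2B as PCAF, ACKR3 as CMKOR1), and CARM1 was not found. The members and lists were chosen with earlier results of these data known. Groups came from the labels. The 2 scans whose label and array disagreed were left out. Other settings varied background correction, normalization, probe filter, probe choice, scans, arrays and the replicate number.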

Additional observations from a re-analysis of the deposited data

Results flagged for a closer look

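HLA-DMA lay below 0 on both arrays of U87 Si306 + 2 Gy and above 0 on both arrays of U87 Si306 + 10 Gy. The ratio at 10 Gy minus that at 2 Gy was 0.13 ± 0.07 (log2, SE of the limma contrast) and did not pass an adjusted p under 0.05. Under median centring it turned to -0.11. The second HLA-DMA probe lay at -0.14 and -0.22 at 2 Gy and at -0.07 and 0.04 at 10 Gy.

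The other results differ between 10 and 2 Gy at an adjusted p under 0.05 in the limma contrast of the doses, given as the log2 ratio at 10 Gy minus that at 2 Gy. With Si306 added to PT, 3 of 7 class II genes outside the members passed, all higher, beside 10.2% of all gene names higher and 12.6% lower, with differences of 0.17 for the brightest HLA-DQB1 probe, 0.18 for HLA-DRB3 and 0.23 for HLA-DRB4. The other HLA-DQB1 probes gave -0.19 and -0.11. Class I genes had differences of 0.18 (HLA-B), 0.24 (B2M), 0.32 (PSMB9) and 0.33 (PSMB10) with Si306. After PT alone the difference was -0.24 for HLA-B, -0.14 for B2M and -0.23 for PSMB9. The second B2M probe gave -0.03 with Si306 and -0.09 after PT alone.

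Of the costimulatory genes and receptors, CD86 differed by 0.88, LAG3 by 0.23, CD58 by -0.21 and CD274 by -0.39 with Si306, and CD274 by -0.15 after PT alone. CD44 differed by -0.34 with Si306 and by -0.14 after PT alone, and MIF by -0.24 with Si306. The other CD86 probe gave 0.34. IFI30 differed by 0.36 with Si306. ZXDC differed by -0.32 by its brightest probe and by 0.25 by its second. After PT alone the differences were -0.20 for HLA-DOA, 0.18 for CREBBP, 0.37 for KAT2B, -0.18 for IRF2 and -0.14 for PTPN11. Other probes of these genes gave -0.14 for HLA-DOA, -0.16 for CREBBP, -0.04 for KAT2B, -0.02 for IRF2 and between 0.00 and 0.26 for PTPN11.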

How the results depend on the processing

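The members' medians with Si306 stayed below 0 under all alternatives run. Median centring in place of loess gave 0 and 1 DEGs in place of 4 and 2 at 2 and 10 Gy with Si306, medians of -0.48 and -0.26 there, and medians of 0.52 and 0.43 after PT alone. The median at 2 Gy with Si306 was -0.82 without background correction, -0.95 with an offset of 16 and -0.75 over the mean of all kept probes. At 10 Gy with Si306 the offset of 16 gave -0.60. With the scanner's own log ratio the medians were -1.03 and -0.64 with Si306 and -0.0744 in U87 10 Gy, and with the series matrix -1.03, -0.641 and -0.0744. The mean of all kept probes gave 0.0369 and 0.0553 after PT alone. Over the members well above background in the configuration, an alternative chosen after seeing the data, the medians with Si306 were -0.99 and -0.62. Leaving out 1 array gave medians of -0.05 to 0.02 and -0.0085 to 0.0183 after PT alone, -0.85 to -0.83 and -0.55 to -0.53 with Si306, and 4 to 5 and 2 to 2 DEGs. It left 57 to 63, 47 to 56, 49 to 62 and 40 to 55 genes of the lists past the threshold. The 5th DEG was CD74. With every scan fitted and the replicate number as a replicate block, the counts were 4 and 2 and the medians -0.84 and -0.54, and 64, 58, 65 and 61 genes of the lists passed in place of 63, 55, 61 and 54. The numbers name scans and not cultures, and the block left the members' counts as they were. Dim probes limit what HLA-DQA1 and CIITA show.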
